A study of Homo sapiens with 2 samples.

Results

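EGF-family ligands, the ERBB receptors they bind and the receptor inhibitor ERRFI1 were examined in UGT8-knockdown and control MDA-MB-231 cells. The members were 9 named genes, the ligand genes NRG1, EREG, AREG, TGFA and HBEGF, the receptor genes EGFR, ERBB2 and ERBB3, and ERRFI1. Every probe set whose only gene symbol was a member was read, which gave 35 of 45278 probe sets with 1 gene symbol, and 8 of 18244 genes. No probe set had AREG as its only gene symbol, so AREG was not analysed here. MDA-MB-231 is a human breast carcinoma line. The knockdown cells were a clone of it with stable knockdown of UGT8, the gene for the enzyme that makes galactosylceramide, and the parental line served as control. Cells of both kinds were grown in DMEM with 5.6 mmol/L glucose and harvested 48 h after passage, and the reagent used for the knockdown is not given in the sources used here. Total RNA of each was hybridised to 1 Affymetrix array, so no difference below has a replicate check, none was tested and no p-value is given. A clone was set against its parental line, so that differences between clones and the knockdown itself cannot be told apart.

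The EGF family comprises growth factors that are made as membrane-anchored precursors and released by metalloproteases of the ADAM family. TGF-alpha, epiregulin and HB-EGF bind EGFR, the last 2 also bind ERBB4, and neuregulin 1 binds ERBB3 and ERBB4. ERBB2 has no known ligand and pairs with the other receptors, and ERBB3 has little kinase activity of its own. Receptor pairs signal through the RAS-ERK and PI3K-AKT branches, and ERRFI1, itself induced by that signalling, binds the EGFR kinase domain and restrains it. MDA-MB-231 cells are known to express EGFR and to carry activating mutations in the RAS pathway.

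The promoters of 3 members that were lower in the knockdown clone, and of HBEGF, a ligand gene that was not, are shown as regulatory sequences of ligand and inhibitor genes. NRG1, the member that was at least 1.5-fold higher, was left out of the motif search among members. The windows below thus give no comparison with it. Each window is taken from RefSeq on GRCh38.p14 and runs from 250 bases before the annotated transcription start to 50 bases from it, 5′ to 3′ on the strand of the gene. Capitals mark matches to the letters searched, which were TGANTCA (AP-1), TGACGTCA (CRE), CCGGAAGN (an ETS core), GGGCGG (the SP1 box) and GGNNTTTCC (NF-kappaB) on both strands, and TATAAA (the TATA box) on the gene strand. EREG, epiregulin, at chr4:74364895-74365194 on the plus strand:
EREG: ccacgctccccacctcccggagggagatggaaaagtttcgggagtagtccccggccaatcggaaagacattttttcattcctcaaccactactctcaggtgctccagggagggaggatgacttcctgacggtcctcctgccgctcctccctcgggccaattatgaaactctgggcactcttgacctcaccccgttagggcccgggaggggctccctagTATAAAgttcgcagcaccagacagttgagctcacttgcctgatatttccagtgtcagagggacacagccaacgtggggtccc
TGFA, TGF-alpha, at chr2:70553777-70554076 on the minus strand, the upstream one of the windows listed for it:
TGFA: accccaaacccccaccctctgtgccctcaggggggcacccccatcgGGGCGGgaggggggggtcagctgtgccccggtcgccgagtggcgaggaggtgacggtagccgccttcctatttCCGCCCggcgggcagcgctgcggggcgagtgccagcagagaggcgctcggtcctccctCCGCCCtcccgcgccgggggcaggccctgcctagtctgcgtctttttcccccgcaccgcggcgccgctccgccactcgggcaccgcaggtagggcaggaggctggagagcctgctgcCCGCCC
ERRFI1, at chr1:8026260-8026559 on the minus strand:
ERRFI1: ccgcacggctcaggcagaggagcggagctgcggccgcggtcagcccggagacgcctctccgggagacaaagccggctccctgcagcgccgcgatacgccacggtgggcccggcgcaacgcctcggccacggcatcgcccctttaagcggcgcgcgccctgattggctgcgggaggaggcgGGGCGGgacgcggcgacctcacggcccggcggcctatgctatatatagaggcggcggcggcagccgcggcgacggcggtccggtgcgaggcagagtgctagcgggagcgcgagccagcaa
HBEGF, at chr5:140346554-140346853 on the minus strand:
HBEGF: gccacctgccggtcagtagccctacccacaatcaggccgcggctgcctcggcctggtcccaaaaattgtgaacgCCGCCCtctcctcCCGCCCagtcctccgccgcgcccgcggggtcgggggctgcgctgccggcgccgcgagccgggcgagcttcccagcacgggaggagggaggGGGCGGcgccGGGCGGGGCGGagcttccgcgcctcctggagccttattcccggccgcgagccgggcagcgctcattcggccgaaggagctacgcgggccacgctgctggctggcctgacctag

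The EREG window held a TATA box, from -32 to -27 relative to the start, which 7.33% of 35116 promoter windows held. It held none of the other motifs. The SP1 box, which 45% of all windows held, was found 4 times in the TGFA window, once in that of ERRFI1 and 5 times in that of HBEGF, where 2 of the matches overlap by a base. Neither AP-1 (7.71% of all windows) nor CRE (1.85%), the ETS core (10.2%) or NF-kappaB letters (6.26%) were in any of these 4 windows. G and C made up 57.7% of the EREG window, 75.3% of that of TGFA, 74.7% of that of ERRFI1 and 75% of that of HBEGF, against a median of 58.7% over all windows. The members lower in the knockdown clone thus did not share a motif of this search that HBEGF lacked. A match describes these letters and is not a measured site.

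The labels were checked on UGT8 first. Its brightest probe set read 6.61 in the knockdown clone and 8.95 in control cells (log2), a difference of -2.34, and its other probe sets differed by -1.68 and -2.27. UGT8 was thus lower in all 3 of its probe sets. Levels are given as log2 values made by RMA, and every difference is knockdown minus control. Genes and probe sets were called past the floor where their mean over both arrays was at or above the median of all probe sets (log2 6.64). Of the 3 UGT8 probe sets only the brightest passed it, and the knockdown reading of that probe set (6.61) lay under it. Both arrays had a median of 6.64. Control RNAs added at hybridisation were higher by a median of 0.51 on the knockdown array and poly-A control RNAs by 0.07, so each direction holds relative to the bulk of the genes. The 3′ minus 5′ reading of ACTB was 0.90 on the knockdown and 0.49 on the control array, and that of GAPDH was 0.19 on the knockdown and 0.18 on the control array. The part of these readings in the differences below was not tested. All 6 mesenchymal markers lay past the floor, with CDH2 closest to it (6.85 in knockdown and 6.64 in control cells). The epithelial marker CDH1 lay past the floor too, in 1 of its 2 probe sets (7.66 in knockdown and 8.01 in control cells). A place past the floor describes a level and not the identity of the cells. Of 6 luminal and hormone receptor markers, KRT8, KRT18, GATA3 and FOXA1 lay past it, with differences of -0.22 to 0.09, and ESR1 and PGR, hormone receptor genes that this line is known not to express, lay below it. Of 5 epithelial markers, 4 lay past the floor, with EPCAM higher in knockdown cells (0.62, 1.54-fold) and CDH1 (-0.35), KRT19 (-0.42) and CLDN4 (-0.49) within 1.5-fold. Of the markers of other cell types, 1 of 5 of fibroblasts (LUM) and 2 of 4 of endothelium (PECAM1 and KDR) lay past the floor. So did 1 of the 3 leukocyte markers that had a probe set with 1 gene symbol (CD14). The fibroblast markers spanned 4.11 to 6.69 on the knockdown and 4.47 to 8.04 on the control array. The endothelial markers spanned 4.61 to 7.37 on the knockdown and 4.61 to 8.46 on the control array, and the leukocyte markers 3.40 to 6.77 on the knockdown and 3.56 to 7.50 on the control array. LUM differed by -1.34, PECAM1 by -1.09, KDR by -0.36 and CD14 by -0.73, and the part of these markers in the differences of the members was not tested. In RNA of a whole culture, fewer cells with a transcript and less of it per cell cannot be told apart.

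The comparison asked how the ligand, receptor and inhibitor genes differed between UGT8-knockdown and control cells. Read by its brightest probe set, the neuregulin gene NRG1 was 2.46-fold higher, and EREG, TGFA and the inhibitor gene ERRFI1 were 2.14-fold, 2.12-fold and 2.46-fold lower. HBEGF, EGFR, ERBB2 and ERBB3 lay within 1.5-fold. At 2-fold, 1 of the 8 measured members was thus higher and 3 were lower, where 0.738% of the 10439 genes past the floor were higher and 1.54% lower. The same members were counted at 1.5-fold, where 4.96% of those genes were higher and 6.74% lower. Over single probe sets, 3 of 35 were at least 1.5-fold higher and 7 lower, against 3.56% and 4.59% of all probe sets with 1 symbol. At 2-fold, 3 were higher and 4 lower, against 0.543% and 1.1%. The members were chosen with results of these arrays known, so their share above the background is a description. The median difference of the 8 members was -0.31, beside 0.03 over all genes past the floor.

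**Figure D1:**
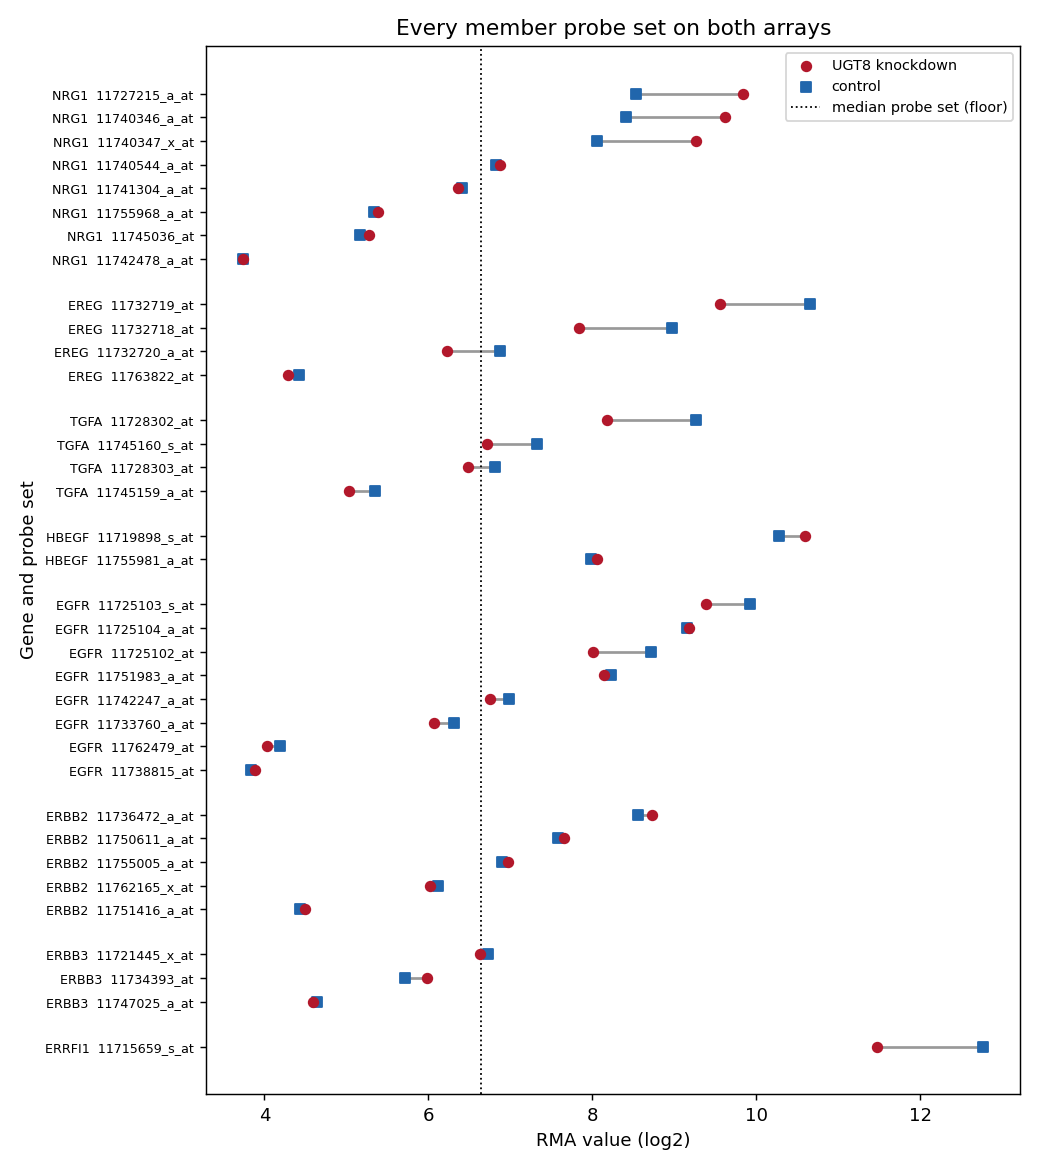
RMA value (log2, x axis) of each of the 35 member probe sets (rows, grouped by gene, brightest first) on the UGT8-knockdown array (red circles) and the control array (blue squares), joined by a grey line, with the floor as a dotted line. The 3 brightest NRG1 probe sets read higher on the knockdown array, and all 4 probe sets of EREG, all 4 of TGFA and that of ERRFI1 read lower on it.

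Among the ligands that bind EGFR, epiregulin and TGF-alpha transcripts were lower in the knockdown clone. EREG read 9.56 in knockdown and 10.66 in control cells in its brightest probe set, 11732719_at, a difference of -1.10 that left 46.6% of the control signal. A further EREG probe set past the floor, 11732718_at, read 7.83 in knockdown and 8.97 in control cells (-1.14), so both differed by nearly the same amount. The dimmer EREG probe sets read 6.23 in knockdown against 6.87 in control cells (-0.64), and 4.29 in knockdown against 4.42 in control cells (-0.13), the last of these under the mean of the background probe sets (4.73). EREG was thus lower in 4 of 4 probe sets, with the smaller differences in the dim ones. Among the 10439 genes past the floor, the difference was lower still for 108 than for EREG, and for 119 than for TGFA.

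TGFA, which encodes a ligand of EGFR alone, read 8.18 in knockdown and 9.27 in control cells in its brightest probe set, 11728302_at, a difference of -1.08 that left 47.3% of the control signal. Its probe set 11745160_s_at read 6.72 in knockdown and 7.32 in control cells (-0.60), 11728303_at 6.48 in knockdown and 6.82 in control cells (-0.33), and 11745159_a_at 5.03 in knockdown and 5.35 in control cells (-0.32). All 4 probe sets were lower, but only 2 by 1.5-fold, and over all 4 the mean difference was -0.58 ± 0.36, just within 1.5-fold (SD over its probe sets, which measures their disagreement and no replicate error). The TGFA reading past 2-fold thus rests on 1 probe set.

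HBEGF, which encodes heparin-binding EGF-like growth factor, read 10.60 in knockdown and 10.27 in control cells in its probe set 11719898_s_at, a difference of 0.32. Its other probe set read 8.06 in knockdown and 7.99 in control cells (0.07). Both were slightly higher in the knockdown clone on the deposited scale, though HBEGF was at -0.19 with values centred on the hybridisation controls, and neither reached 1.5-fold. HBEGF thus did not share the 2-fold lower reading of EREG and TGFA.

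NRG1, the ligand gene of ERBB3 and ERBB4 in this group, was the member at least 1.5-fold higher in knockdown cells. It read 9.83 in knockdown and 8.53 in control cells in probe set 11727215_a_at (1.30), 9.62 in knockdown and 8.41 in control cells in 11740346_a_at (1.21), and 9.27 in knockdown and 8.06 in control cells in 11740347_x_at (1.21). These 3 probe sets thus gave nearly the same difference. The second and the third of them are listed under the same transcript and are not independent readings. The other 5 NRG1 probe sets differed by -0.05 to 0.11, and 4 of these lay below the floor. The exception, 11740544_a_at, read 6.87 in knockdown and 6.82 in control cells, just past the floor. NRG1 makes many isoforms from several promoters, and which isoforms each probe set reads is not given in the sources used here. With its dim probe sets averaged in, NRG1 differed by 0.49 over all 8, within 1.5-fold, and by 0.94 over the 4 past the floor. A higher difference than that of NRG1 was found for 24 of the genes past the floor.

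**Figure D2:**
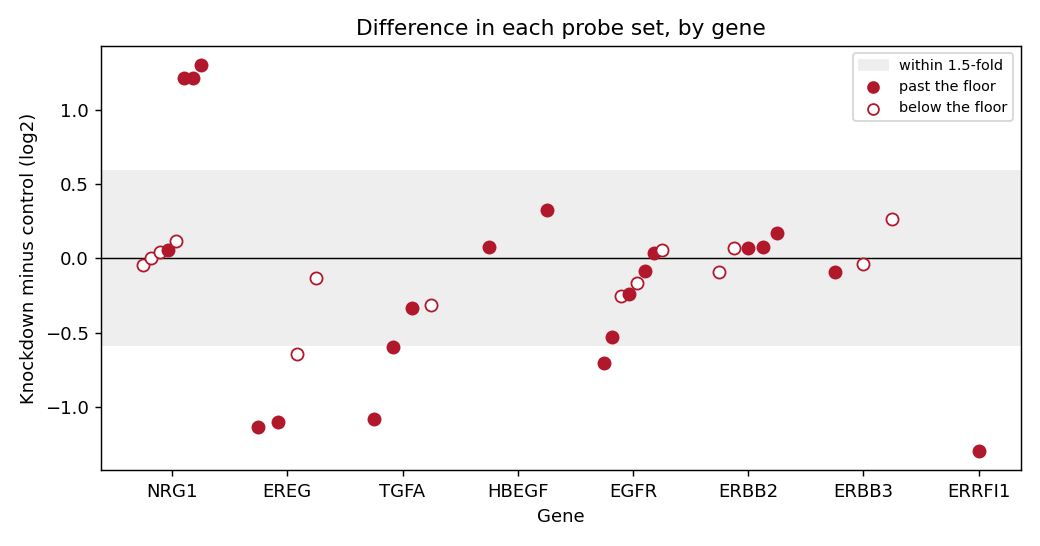
Difference between the UGT8-knockdown and the control array (log2, y axis) for each probe set of each member (x axis), with filled points for probe sets past the floor, open points for those below it and a grey band for differences within 1.5-fold. NRG1 splits into 3 probe sets between 1.21 and 1.30 and 5 between -0.05 and 0.11, and the 8 EGFR probe sets spread from -0.71 to 0.05.

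The receptor genes differed less, and the probe sets of EGFR did not give 1 answer. EGFR encodes the receptor for TGF-alpha, epiregulin and HB-EGF. It read 9.39 in knockdown and 9.92 in control cells in its brightest probe set, 11725103_s_at, a difference of -0.53 or 1.44-fold lower. Probe set 11725102_at, listed in the platform table under the same RefSeq transcript, the one that encodes the full-length receptor, read 8.01 in knockdown and 8.71 in control cells (-0.71), the only EGFR reading past 1.5-fold. Against these, 11725104_a_at read 9.18 in knockdown and 9.15 in control cells (0.03), and 11751983_a_at 8.14 in knockdown and 8.23 in control cells (-0.09). The brighter probe sets thus split into a pair with a lower reading and a pair near 0. The 3 probe sets listed under RefSeq transcripts of truncated receptor forms differed by -0.24, -0.25 and 0.05, and the last 2 of these lay below the floor. Averaged over the 5 probe sets past the floor, EGFR differed by -0.31 ± 0.31 (SD over probe sets). Without probe sets marked for possible cross-hybridisation, the brightest left was 11725104_a_at, at 0.03. Probe set 11725102_at (-0.71) carries no such mark, so the lower reading is not confined to marked probe sets. With values centred on the poly-A controls, the brightest EGFR probe set was at -0.60, just past 1.5-fold.

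ERBB2, the receptor gene with no known ligand, read 8.73 in knockdown and 8.56 in control cells in its brightest probe set, a difference of 0.17. Its other 4 probe sets differed by -0.09 to 0.07. ERBB3, the neuregulin receptor gene, read 6.63 in knockdown and 6.73 in control cells (-0.09) in the only probe set of 3 that passed the floor. The others read 5.98 in knockdown against 5.71 in control cells (0.27), and 4.60 in knockdown against 4.64 in control cells (-0.04). ERBB3 thus lay close to the floor on both arrays, and none of the probe sets of ERBB2 or ERBB3 reached 1.5-fold.

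ERRFI1, also called MIG6, is the feedback inhibitor of the receptors. It read 11.47 in knockdown and 12.77 in control cells, a difference of -1.30 that left 40.7% of the control signal. A lower difference was found for 68 of the genes past the floor. ERRFI1 has a single probe set, 11715659_s_at, whose name marks that it may read other transcripts too, so no further reading of it was at hand and it has no value without such probe sets.

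**Figure D3:**
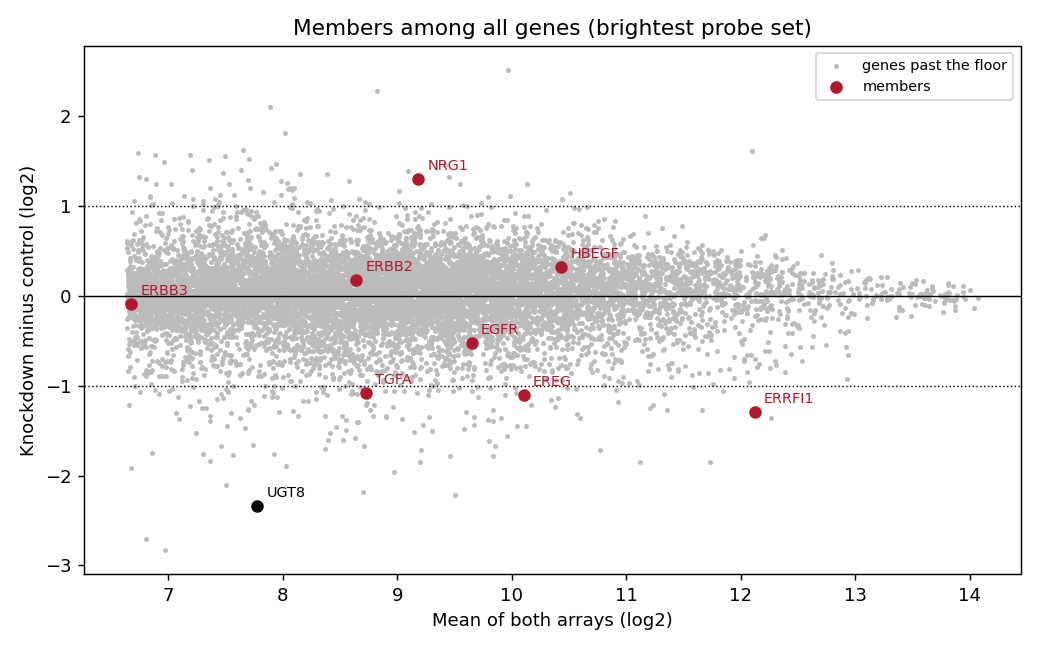
Difference between the UGT8-knockdown and the control array (log2, y axis) against the mean of both arrays (log2, x axis) for the 10439 genes past the floor (grey), with the 8 measured members in red, UGT8 in black and dotted lines at 2-fold. NRG1 (1.30) lies above the upper line, and EREG (-1.10), TGFA (-1.08) and ERRFI1 (-1.30) lie below the lower line.

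The remaining genes of the family had mean levels under the floor. The ligand genes EGF, BTC, EPGN, NRG2, NRG3 and NRG4 and the receptor gene ERBB4 had 25 probe sets, none past the floor and none past 1.5-fold, with differences from -0.37 to 0.55. EGF, of which the knockdown reading alone was above the floor value, read 6.81 in knockdown and 6.43 in control cells (0.37) and BTC, betacellulin, 5.50 in knockdown and 4.95 in control cells (0.55). EPGN, epigen, differed by 0.12, NRG2 by 0.03, NRG3 by 0.00, NRG4 by 0.04 and ERBB4 by 0.09. A small difference at such levels does not show that transcript levels were equal.

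Genes that act in the release of the ligands read lower as a list. Of 13 genes of ligand shedding and trafficking, 11 lay past the floor, all 11 were below 0, 4 of them (36.4%) by at least 1.5-fold, beside 6.74% of all genes past the floor. Their median difference was -0.42, beside 0.03 over all genes past the floor, of which 45.8% were below 0. This list was chosen with earlier results of these data known, so its shares are a description. The metalloprotease genes ADAM8 (9.17 in knockdown and 10.06 in control cells, -0.90), ADAM10 (8.75 in knockdown and 9.54 in control cells, -0.79) and ADAM9 (11.12 in knockdown and 11.90 in control cells, -0.78) were among the lower ones. TIMP3, whose product inhibits ADAM proteases, was lower too (11.41 in knockdown and 12.23 in control cells, -0.82), so the lower genes include both proteases and an inhibitor of them. ADAM10 and ADAM9 were at least 1.5-fold lower in all their probe sets, with ranges of -0.79 to -0.59 and -0.94 to -0.64, while ADAM8 ranged from -1.10 to -0.32. ADAM17, a main protease for TGF-alpha, HB-EGF and epiregulin, lay within 1.5-fold at -0.34.

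None of the genes past the floor that transmit the signal reached 1.5-fold in its brightest probe set. Of 16 adaptor and proximal effector genes, 15 were measured past the floor, with a median of -0.11 and a range of -0.57 to 0.29. The lowest was SOS1 (-0.57, 1.49-fold lower), which encodes an exchange factor that activates RAS. The 4 SOS1 probe sets ranged from -0.57 to 0.04, with a mean of -0.26. Of 13 genes of the RAS and ERK cascade, 7 had a probe set and 6 lay past the floor, with a median of -0.04 and a range of -0.24 to 0.55. The highest was HRAS, a RAS gene, at 0.53 and 0.55 in its probe sets (1.46-fold higher in the brightest). Among all 34 probe sets of this list, 1 passed 1.5-fold, on the higher side. It was an ARAF probe set at 0.77, while the brightest ARAF probe set was at -0.05 and the lowest at -0.33. Likewise 7 of 11 genes of the PI3K and AKT branch had a probe set and 6 lay past the floor, with a median of 0.02 and a range of -0.09 to 0.36. In these counts a gene has a probe set only where no other gene symbol is named for it. The genes of these lists without such a probe set were not analysed here.

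Of 20 genes of receptor down-regulation, 16 lay past the floor, 4 of them (25%) lower by at least 1.5-fold and none higher, beside 6.74% lower and 4.96% higher over all genes past the floor. Their median was -0.07, and both this value and the gene counts rest on the brightest probe set of each gene. Among all 62 probe sets of the list, dim ones included, 9 passed 1.5-fold on the lower side and 3 on the higher side. SOCS3, a suppressor of cytokine signalling, read 8.16 in knockdown and 8.99 in control cells (-0.83). CBLB, a ubiquitin ligase of activated receptors, read 8.25 in knockdown and 9.09 in control cells (-0.83). LRIG1, a membrane protein that promotes loss of ERBB receptors, read 9.26 in knockdown and 9.99 in control cells (-0.74). PTPRK, a receptor phosphatase, read 9.65 in knockdown and 10.29 in control cells (-0.64). LRIG1 was lower in both of its probe sets and SOCS3 in both, but the probe sets of CBLB ranged from -0.84 to 0.21 and those of PTPRK from -0.92 to 1.33, so the last 2 have no single direction. Other genes of the list went the opposite way. SH3KBP1 was above 0 in all 4 of its probe sets (0.35 to 0.85), all past the floor. SOCS4 was above 0 in all 4 of its own (0.12 to 0.73), of which only the probe set at 0.12 lay past the floor. SOCS5, within 1.5-fold at -0.57 in its brightest probe set, was below 0 in all 4 of its own (-0.70 to -0.49). All 4 of these lay past the floor. Of the 16 genes past the floor, 10 were below 0, so the list did not move in 1 direction.

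ERK-responsive genes, which report output of the pathway in many cells, were mostly below 0. All 18 lay past the floor, 13 of them were below 0, and the median was -0.18. At 1.5-fold 5 (27.8%) were lower and 1 (5.56%) higher, beside 6.74% lower and 4.96% higher over all genes past the floor. These shares too are a description, since the list was chosen with earlier results of these data known. EGR1, an immediate early transcription factor gene, read 7.84 in knockdown and 8.94 in control cells (-1.10), and its 6 probe sets averaged -0.62. DUSP6, the phosphatase gene that restrains ERK, read 10.93 in knockdown and 11.84 in control cells (-0.91) and was lower by 0.91 or more in all 4 of its probe sets. EPHA4 (-0.82), SPRY4 (-0.74) and SPRY2 (-0.64), the last 2 encoding Sprouty inhibitors of the pathway, were lower too. FOSL1, a subunit gene of AP-1, was the gene at least 1.5-fold higher, with 10.81 in knockdown and 10.10 in control cells (0.71). All 6 of its probe sets lay between 0.57 and 0.78. The other genes above 0 were EPHA2 (0.41), ETV5 (0.38), MYC (0.17) and PHLDA1 (0.07). EPHA2 and ETV5 were above 0 in all their probe sets, while those of PHLDA1 ranged from -0.67 to 0.41. CCND1 and FOS were each at -0.02, and the 4 FOS probe sets ranged from -0.48 to -0.02. The remaining genes below 0, all within 1.5-fold, were SPRED1 (-0.53), DUSP5 (-0.38), ETV4 (-0.33), DUSP4 (-0.25), IER3 (-0.11) and SPRED2 (-0.06). SPRED1 was below 0 in all 5 of its probe sets (-0.65 to -0.32), all past the floor. Apart from EGR1, DUSP6, EPHA4 and SPRY4, the genes of this list were picked for naming with their values in view.

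**Figure D4:**
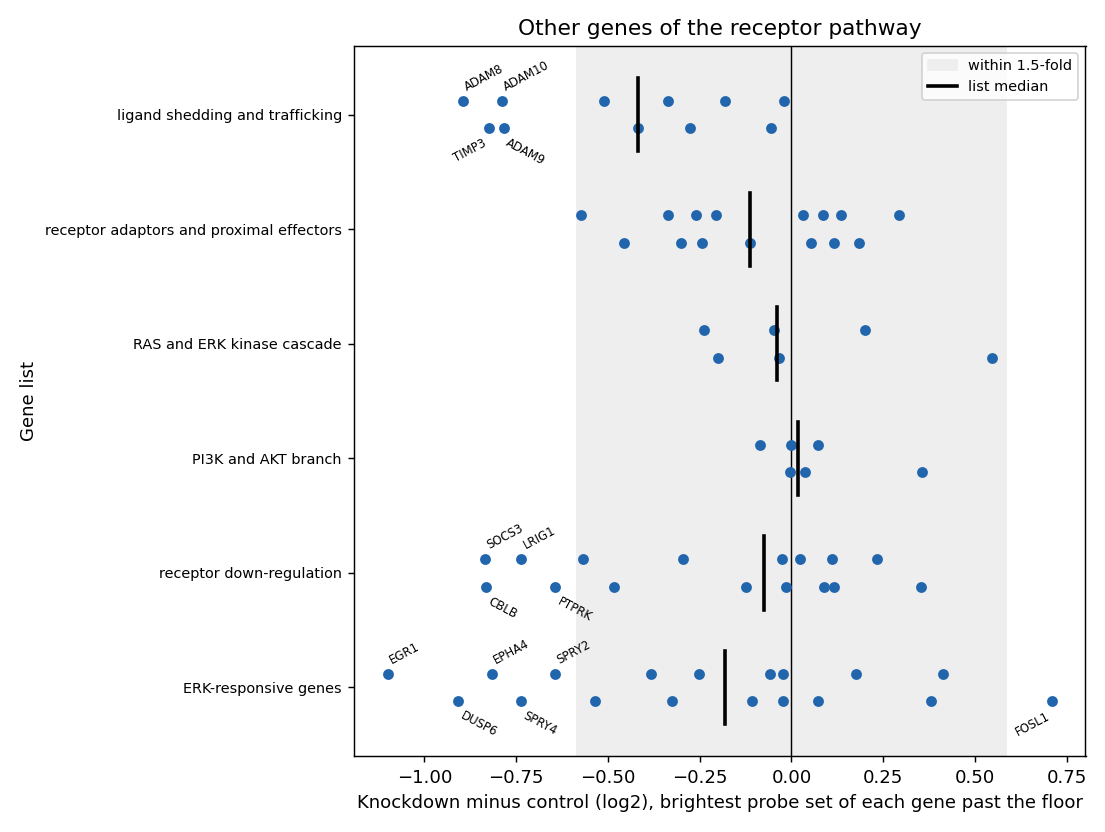
Difference between the UGT8-knockdown and the control array (log2, x axis) of each gene past the floor (points) in 6 lists of the receptor pathway (rows), with list medians as black bars, a grey band for differences within 1.5-fold and names for genes outside it. All 11 points of the shedding list lie below 0, and FOSL1 at 0.71 is the gene beyond the band on the right.

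**Figure D5:**
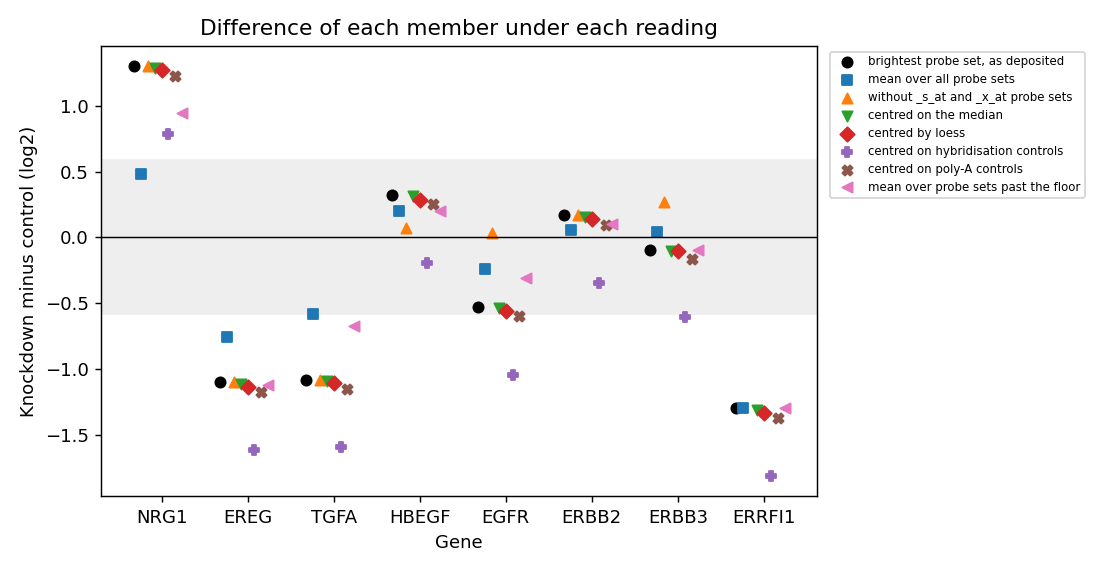
Difference between the UGT8-knockdown and the control array (log2, y axis) of each measured member (x axis) when read by its brightest probe set as deposited (black circles) and under 7 other readings (other symbols), with a grey band for differences within 1.5-fold. NRG1 is above 0 and EREG, TGFA and ERRFI1 are below 0 under each reading plotted for them, whereas HBEGF, EGFR, ERBB2 and ERBB3 have points on both sides of 0.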

How the data were processed

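Total RNA of 1 sample per group was measured on Affymetrix arrays. The deposited values are log2 values that the authors made with RMA, per the submitters' processing notes. RMA corrects background, normalizes between arrays and summarises each probe set. The sources used here do not give the software, its version or a genome build, and scanner files were not analysed here. With no scanner files the detection of single probe sets is unknown, and 1 array a group limits the precision.

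Groups came from the genotype labels. Probe sets were named through the platform annotation, with symbols updated to RefSeq (GRCh38.p14), where 18201 of 18244 were found. Of 49495 probe sets, 102 were controls, 1333 had several symbols and 2782 had none in the table used. The brightest probe set by mean level stood for a gene, and lists were read over genes past the floor at the 50th percentile of mean level. No test was run. Genes named were UGT8, every member, every gene of the list of further family members, and up to 4 genes per other list with the largest difference of at least 1.5-fold. Beyond that rule, SOS1, HRAS, ARAF, SH3KBP1, SOCS4, SOCS5, ADAM17, CDH2, KDR, LUM, PECAM1, CD14, ESR1 and PGR were named after their values were seen. The members, lists and motifs were chosen with earlier results of these data known. Alternatives were the mean over probe sets, leaving out probe sets marked _s_at or _x_at, other floors and thresholds, and centring on the median, by loess (fraction 0.3) or on spike-in controls. The mean over probe sets past the floor was added after the data were seen. The procedure was tested on simulated data. Python 3.11.15, pandas 2.3.3 and statsmodels 0.14.6 were used.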

Additional observations from a re-analysis of the deposited data

How the results depend on the processing

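No paired analysis was possible because each group holds 1 array, and no array can be left out. Over the 159 values recomputed for UGT8, the members, the counts and the lists, 113 moved by less than the typical SD between the probe sets of a gene (median 0.0832), or, for counts, by no more than 1.5 times, and 46 moved by more. None of the members past 1.5-fold changed sign under any alternative run. Averaged over all probe sets, dim ones included, the differences were -2.10 for UGT8, 0.49 for NRG1, -0.75 for EREG, -0.58 for TGFA, 0.20 for HBEGF, -0.24 for EGFR, 0.056 for ERBB2 and 0.043 for ERBB3. NRG1 then no longer reached 1.5-fold, so 0 members were higher at that threshold, and TGFA lay just within it. Under that reading 46 genes were at least 2-fold higher and 99 lower, against 77 and 161 by the brightest probe set, and the shedding list had a median of -0.28. Averaged over probe sets past the floor, NRG1 differed by 0.94, TGFA by -0.67, HBEGF by 0.20 and EGFR by -0.31. Leaving out _s_at and _x_at probe sets, whose names mark possible cross-hybridisation, gave 0.073 for HBEGF, 0.033 for EGFR and 0.27 for ERBB3. Each of these is the reading of the brightest probe set left, which for ERBB3 lay below the floor. The unmarked EGFR probe set 11725102_at stayed at -0.71.

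Centring on the hybridisation controls lowers every difference by 0.51 and the median over all genes past the floor to -0.48. UGT8 was then at -2.85, NRG1 at 0.79, EREG at -1.61, TGFA at -1.59, HBEGF at -0.19, EGFR at -1.04, ERBB2 at -0.35, ERBB3 at -0.61 and ERRFI1 at -1.81. The members at least 1.5-fold lower became 5, by EGFR and ERBB3, and genes at 2-fold became 11 higher and 966 lower (1.13% higher, against 32.4% as deposited). On that scale the list medians were -0.93 for shedding, -0.63 for adaptors, -0.55 for RAS and ERK, -0.49 for PI3K and AKT, -0.59 for receptor down-regulation and -0.69 for ERK-responsive genes. Genes at least 2-fold higher numbered 118 with no floor, 117 with a floor at percentile 25 and 21 with one at percentile 75, where 84 were lower. With a threshold of 1.5-fold 518 were higher and 704 lower, and with 3-fold 7 were higher and 29 lower. Why the values moved under these settings was not tested beyond what each setting does by construction.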

Other observations

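EREG lies on chromosome 4 in a run of genes that holds further EGF-family ligands and CXC chemokines, in the RefSeq annotation of GRCh38.p14. Of the 8 protein-coding genes before it in that order, CXCL2 read 8.67 in knockdown and 9.58 in control cells (-0.91), CXCL3 7.32 in knockdown and 7.98 in control cells (-0.66) and CXCL1 12.05 in knockdown and 12.45 in control cells (-0.40), and all others lay below the floor. After EREG follow AREG, which was not analysed here, BTC, below the floor, PARM1, with 8.03 in knockdown and 8.78 in control cells (-0.75), and RCHY1 (-0.08). The genes of this run past the floor were thus below 0, from -1.10 to -0.08, as were 45.8% of all genes past the floor. Of those under the floor, BTC (0.55), EPGN (0.12), PF4 (0.09) and MTHFD2L (0.07) were above 0, PPBP was at -0.04 and CXCL5 at 0. CXCL1, CXCL2, CXCL3, PARM1 and RCHY1 were named after their values were seen.

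The probe sets of NRG1 disagreed more than those of most genes. In 6067 genes several probe sets lay past the floor, and the SD of their differences within a gene had a median of 0.0832. The SD was 0.60 over the 4 NRG1 probe sets past the floor, a value that 33 genes reached, NRG1 included, and 0.31 over the 5 of EGFR, which 324 genes reached.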
